A study of Mus musculus with 10 samples.

Results

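Brg1 is the catalytic ATPase of the SWI/SNF (BAF) chromatin remodelling complex, and the comparison described here is of Brg1-/- mouse embryonic fibroblasts with wild type fibroblasts. It was taken by array title: 4 arrays titled Brg1-/- and 3 titled WT, which are 7 of the 10 arrays in the series. The remaining 3 arrays were of Snf5-/- cells. They shared the fit and were used for one direct contrast with Brg1-/-, beside which some of their levels are set against wild type. All groups were primary fibroblasts from E13.5 embryos of a mixed C57BL/6 and 129 background, and for every array, wild type included, the labels give retroviral delivery of Cre and selection in 2.5 ug/ml puromycin. The labels give neither the Brg1 allele nor whether replicates came from separate embryos or cultures, so each p-value here covers array-to-array spread alone. Probe set intensity was measured on Affymetrix arrays, and 8403 of 12393 annotated genes were bright enough to be tested.

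SWI/SNF complexes use ATP to slide or evict nucleosomes at promoters and enhancers, and each complex carries either Brg1 (gene Smarca4) or its paralogue Brm (gene Smarca2) as its motor. Core subunits such as Snf5 (gene Smarcb1) and variable subunits such as Arid1a hold the complex together and direct it to its sites. In fibroblasts the complex is known for work with the retinoblastoma protein on cell cycle genes, with AP-1 at enhancers, and with serum response factor on contractile genes.

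The 7 arrays differed in overall brightness. The median deposited intensity was 234, 199.95 and 191 on the wild type arrays and 146.5, 145.6, 165.7 and 168 on the Brg1-/- arrays, so that every Brg1-/- array lay below every wild type array. The difference of -0.409 in log2 gave an exact two-sided permutation p of 0.0286, the smallest that 35 splits allow, and 0.0857 after Benjamini-Hochberg adjustment over the 3 array measures tested. Array brightness and genotype cannot be told apart, so each gene was fitted on 2 scales: after quantile normalization, which gives all arrays the same distribution, and on the deposited scale. The ratio of 3' to 5' control probe sets, a measure of RNA integrity, differed by -0.0347 for beta-actin and 0.0879 for Gapdh in log2 (exact permutation p of 0.371 and 0.0571).

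The scale decided how the calls divided between rises and falls. After quantile normalization 1252 genes (14.9%) were higher and 1081 (12.9%) lower at a limma adjusted p under 0.05, whereas on the deposited scale 288 (3.43%) were higher and 3702 (44.1%) lower. The median log2 difference over all tested genes was 0.02 after quantile normalization and -0.47 on the deposited scale. Below, "rose" and "fell" are used only of genes past the threshold in the same direction on both scales, which were 288 genes (3.43%) and 1081 genes (12.9%). Of these, 274 rises and 287 falls exceeded 1 in log2, and 48 of each exceeded 2, all after quantile normalization. With a weight estimated for each array the same rule gave 674 and 1538 genes. In the main fit, all 288 rises on the deposited scale also passed after quantile normalization, and all 1081 quantile-normalized falls also passed on the deposited scale. The deposited scale thus set the number of rises, and quantile normalization the number of falls. Rises therefore mostly needed larger log2 differences than falls, and counts of rises and falls are not directly comparable. Values and log2 differences given below are quantile-normalized intensities unless the deposited scale is named, and each log2 difference is Brg1-/- minus wild type with its standard error (SE).

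**Figure D1:**
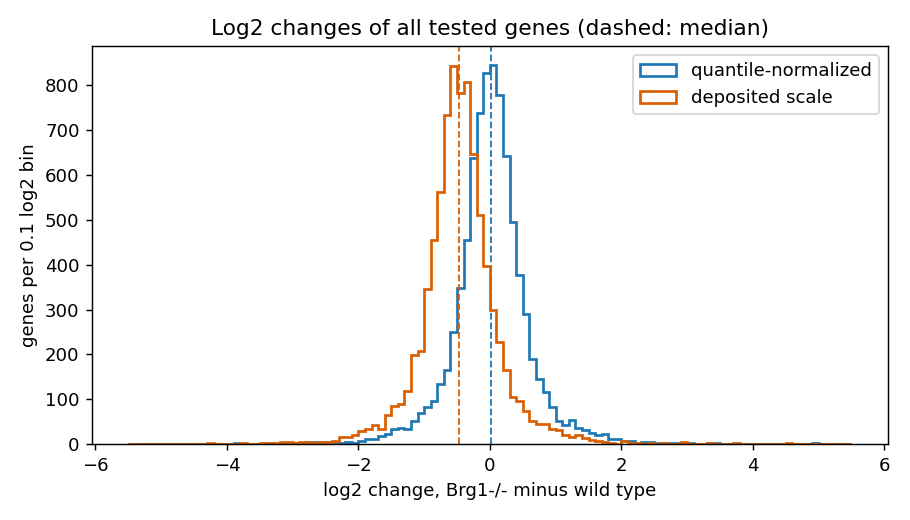
Number of genes (y axis) per bin of 0.1 in log2 difference, Brg1-/- minus wild type (x axis), for 8403 tested genes, quantile-normalized and on the deposited scale; dashed lines mark the medians, 0.02 and -0.47. The whole distribution lies lower on the deposited scale.

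The targeted transcript was checked first. Smarca4 read 2459, 2108 and 2118 on the wild type arrays and 468, 477, 452 and 695 on the Brg1-/- arrays, a fall of 2.11 ± 0.14 in log2 (adjusted p = 2.31e-06), and -2.65 on the deposited scale. No array of one genotype reached the range of the other, and Brg1-/- replicate 4 stood above the other 3 Brg1-/- arrays. The signal that remained lay above the array background, defined below, on all 4 Brg1-/- arrays. A second probe set of Smarca4 had means of 867 in wild type and 248 in Brg1-/- cells. The probe set is listed for Smarca4 at chr9:21616106-21704230 (GRCm38.p6), and where it lies relative to the deleted part is not given in the sources used here. Smarca2, the alternative ATPase, read 190.0, 116 and 136 on wild type and 130.0, 164, 145 and 160.3 on Brg1-/- arrays, a difference of 0.05 ± 0.23 (adjusted p = 0.897), with overlapping groups.

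Among 18 tested SWI/SNF subunits, 1 rose and 2 fell on both scales (median log2 difference 0.25 quantile-normalized, -0.22 deposited). The member that rose was Arid1a, the large DNA-binding subunit that defines the canonical BAF complex. Arid1a read 1005, 949.5 and 889 on the wild type arrays and 2263, 2316, 2278 and 2145 on the Brg1-/- arrays, without overlap, a rise of 1.25 ± 0.09 (adjusted p = 2.65e-06) and 0.68 on the deposited scale. Smarca4 and Bcl7b, an accessory subunit, were the members that fell. Bcl7b differed by -0.44 ± 0.14 (adjusted p = 0.0323); the call of Bcl7b ended on the quantile-normalized scale on leaving out single arrays, with an adjusted p of 0.128 without wild type replicate 1, 0.0823 without wild type replicate 2, 0.0612 without Brg1-/- replicate 1, 0.0694 without Brg1-/- replicate 3 and 0.0558 without Brg1-/- replicate 4. Pbrm1 and Phf10, subunits of the PBAF form, differed by 0.56 ± 0.08 and 0.70 ± 0.12 and Smarcb1 by 0.45 ± 0.10 (adjusted p = 0.000470, 0.00112 and 0.00751), but none of the 3 passed on the deposited scale, where Smarcb1 was at -0.08 (adjusted p = 0.728).

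The 12 largest rises among genes whose arrays did not overlap on either scale were Ccl5, Fndc4, Wnt16, Gas1, Fndc1, Kcnk1, Cdo1, Cxcl10, Kifc1, Agtr2, Medag and Sgo1. Arrays did not overlap between genotypes for 39.4% of all tested genes after quantile normalization and 53.1% on the deposited scale. The largest rise of a gene that was bright in both genotypes was that of Gas1, a membrane protein that binds Hedgehog ligands and was first described in growth-arrested cells. Gas1 read 398, 324 and 296 on the wild type arrays and 3483, 5005, 5534 and 7376 on the Brg1-/- arrays, a rise of 3.94 ± 0.30 (adjusted p = 5.30e-06) and 3.37 on the deposited scale. Every Brg1-/- array was thus several times brighter than any wild type array. Cdo1, the cysteine dioxygenase that starts cysteine breakdown, was at 146, 132 and 142 in wild type and 2019, 1526, 1527 and 1124 in Brg1-/- (3.44 ± 0.20, adjusted p = 1.36e-06). Medag, a gene linked to fat cell development, was at 125, 198 and 188 (wild type) against 961, 1638, 1967 and 1330.1 (Brg1-/-) (3.09 ± 0.24, adjusted p = 5.97e-06). For these 3 genes all 7 arrays lay above the array background, taken as the highest Bacillus subtilis control probe set of each array, which ranged from 21.9 to 64.8.

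The other 9 were dim in wild type cells, and in 8 of them, all but Kifc1, at least 1 wild type array lay at or below background. Ccl5, a chemokine that attracts T cells, was at background on all 3 wild type arrays (8.42, 6.03 and 8.12) and at 181, 257, 221 and 294 on the Brg1-/- arrays, at least 7.70-fold higher (adjusted p = 4.71e-05). This bound sets the Brg1-/- mean against the higher of the background and the measured value on each wild type array, and is used wherever a whole group lay at background. Cxcl10, an interferon-induced chemokine, read 20.04, 90.7 and 49.7 and then 1239.8, 208, 309 and 635, all 4 Brg1-/- arrays above the 3 wild type arrays but spread widely among themselves. Fndc4 and Fndc1 encode proteins with fibronectin type III domains. Fndc4 was at 64.7, 11.9 and 55.1 in wild type and 630.5, 531, 685 and 801 in Brg1-/- (log2 difference 4.23 ± 0.45, adjusted p = 5.28e-05). Fndc1 was at 52.3, 8.09 and 12.1 (wild type) against 187, 269, 207 and 268 (Brg1-/-) (3.74 ± 0.50, adjusted p = 0.000225). Both were clear of background on every Brg1-/- array. Wnt16, a secreted Wnt ligand, rose by 4.16 ± 0.72, Kcnk1, a potassium channel, by 3.66 ± 0.96, and Agtr2, an angiotensin receptor, by 3.32 ± 0.44 (adjusted p from 0.000190 to 0.0136). Kifc1 and Sgo1, which act in mitosis, are taken up with the cell cycle genes.

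The 12 largest falls by the same rule were Qpct, Car8, Serpinb2, Mmp13, Akr1c18, Fabp7, Acta1, Dsp, Lce1f, Tac1, Tfpi2 and Msln. Acta1, the skeletal muscle alpha-actin and a target of serum response factor, was the brightest of them. Acta1 read 5548, 4564 and 4361 on the wild type arrays and 416, 403, 283 and 294 on the Brg1-/- arrays, a fall of 3.80 ± 0.30 (adjusted p = 5.63e-06) and -4.35 on the deposited scale, with no Brg1-/- array near the wild type range. Mmp13, a collagenase, read 422, 688 and 471 in wild type and 41.6, 49, 6.41 and 65.2 in Brg1-/- cells, where 2 of 4 arrays were above background. Tfpi2, a secreted protease inhibitor, read 671, 646 and 536 (wild type) against 62.2, 47.1, 60.7 and 104 (Brg1-/-), and Msln, a surface protein of mesothelial cells, 373, 357 and 403 (wild type) against 60.7, 29, 46.5 and 48.9 (Brg1-/-). Tac1, the precursor of the neuropeptide substance P, fell by 3.31 ± 0.64. In Mmp13, Tfpi2, Msln and Tac1 the lowest wild type array exceeded the highest Brg1-/- array (adjusted p from 3.73e-05 to 0.00266).

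In the other 7 every Brg1-/- array lay at or below background, so only a bound on the fold can be given. Serpinb2, the plasminogen activator inhibitor PAI-2, was at 332, 290.2 and 234 in wild type and 4.09, 21.9, 15.8 and 20.4 in Brg1-/- cells, at least 5.90-fold lower. Car8, a carbonic anhydrase-related protein, was at least 6.42-fold lower and Dsp, the desmosomal plaque protein desmoplakin, at least 5.26-fold lower (adjusted p = 0.00123, 0.00250 and 0.00120). These 3 were the falls with the largest bounds. The bounds were 3.89-fold for Akr1c18, a steroid dehydrogenase, 2.62-fold for Fabp7, a fatty acid binding protein of radial glia, 2.93-fold for Lce1f, a cornified envelope gene, and 3.99-fold for Qpct, which forms pyroglutamate on peptides. The calls of Qpct and Lce1f were lost without any 1 of the wild type arrays (highest adjusted p 0.0965 and 0.0849) and that of Akr1c18 without wild type replicate 2 (adjusted p = 0.0503).

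**Figure D2:**
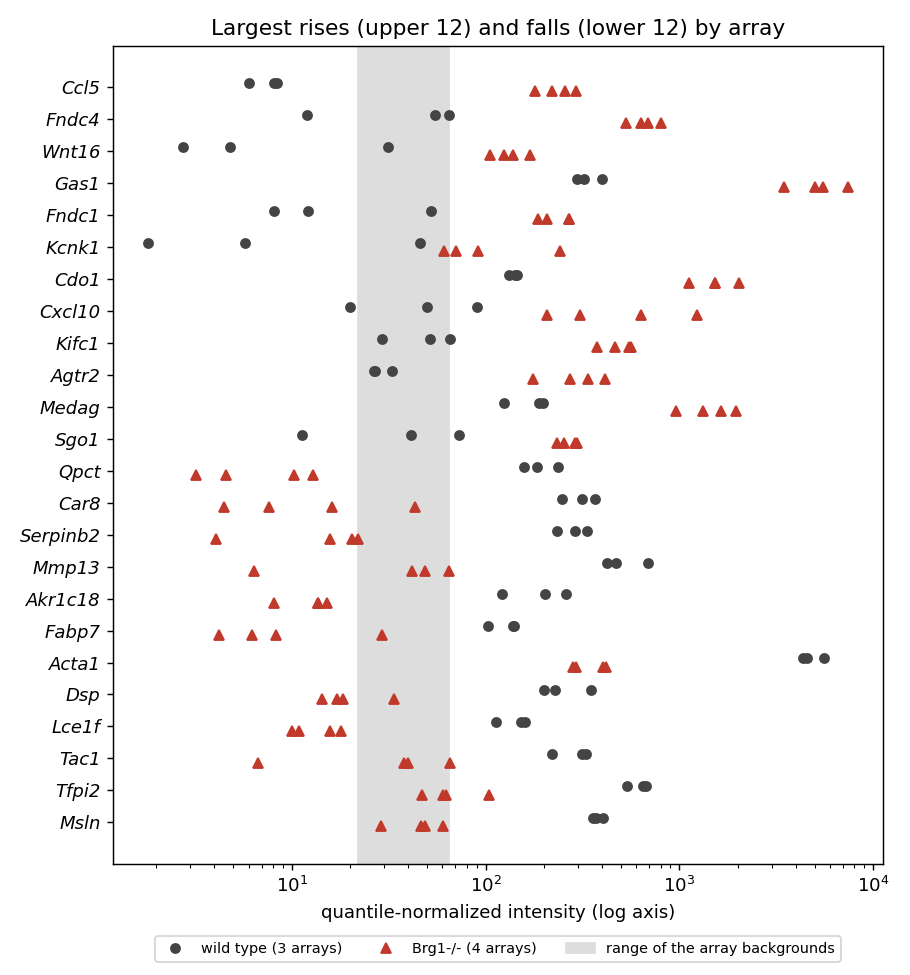
Quantile-normalized intensity (x axis, log scale) of the 12 largest rises and 12 largest falls on each array, with wild type as circles (3 arrays) and Brg1-/- as triangles (4 arrays); the grey band spans the backgrounds of the 7 arrays. Circles and triangles do not overlap for any gene shown, which the choice of genes fixed, and most genes lie in or below the grey band in one genotype.

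To describe groups of genes, 43 lists of pathways, complexes and cell type markers were counted. The lists were chosen with earlier results of these data known, so their shares are descriptions and not tests. The counts stand against the background of 3.43% of all tested genes that rose and 12.9% that fell. The share that rose was highest in the mitotic lists, then in DNA replication, interferon-induced genes and histone variants. The share that fell was highest in muscle markers (3 of only 5 tested genes) and cell junctions (13 of 22). Next came epithelial markers, growth factor signalling of the FGF, PDGF and VEGF families, integrins and contractile genes.

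**Figure D3:**
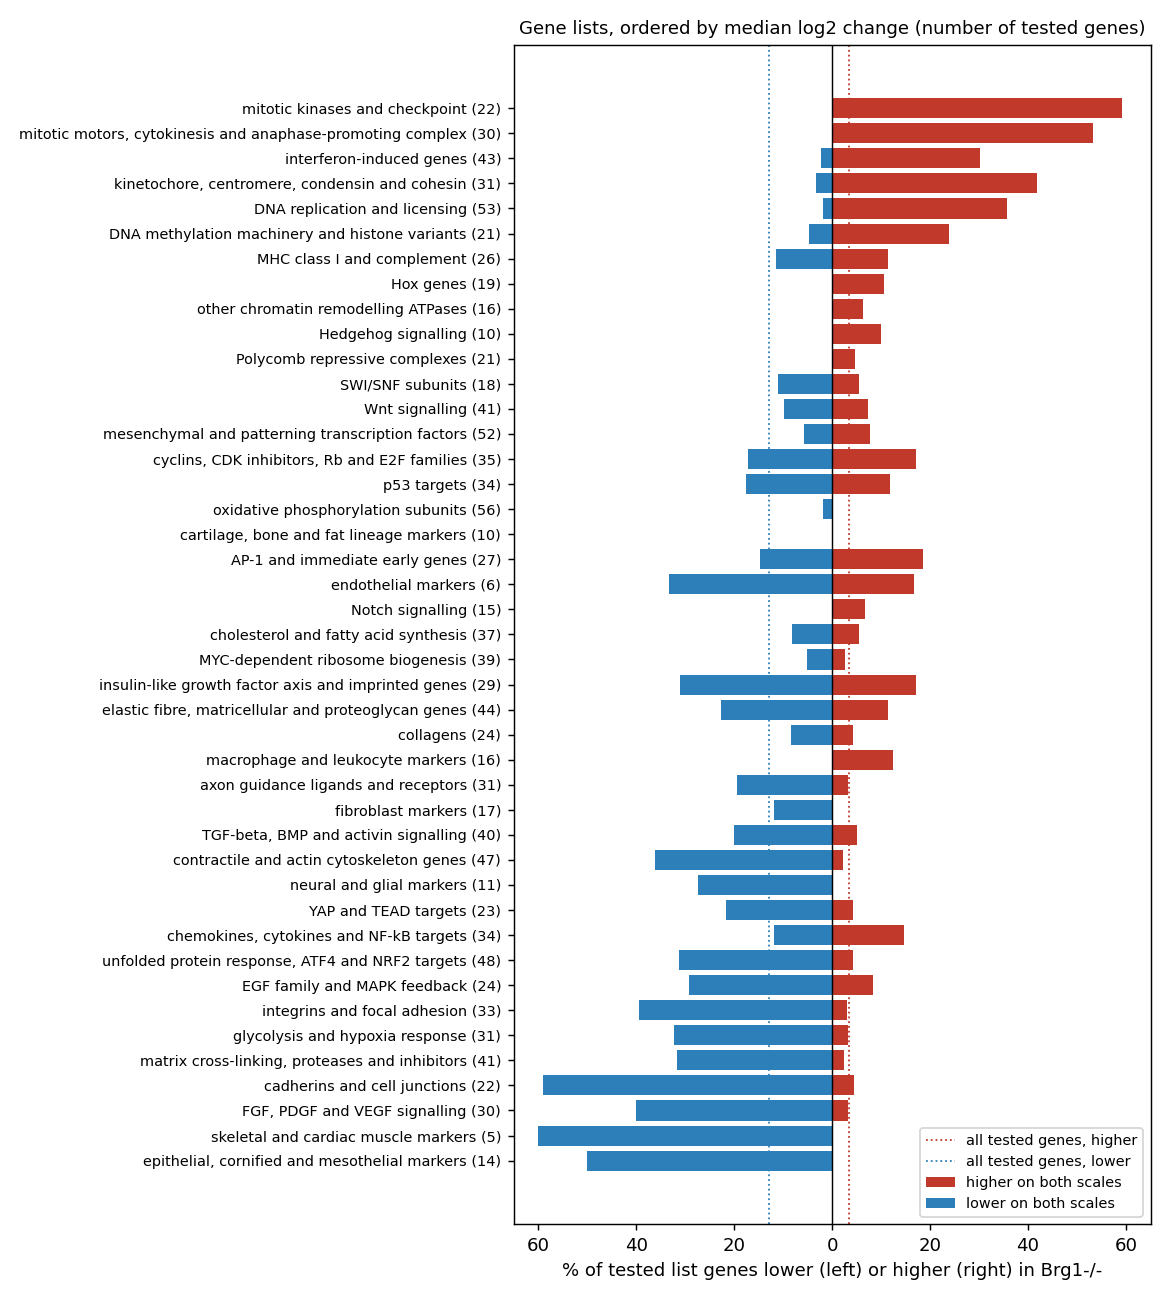
Share of the tested genes of each list that fell (left, blue) or rose (right, red) on both scales, in percent, with the number of tested genes in brackets and lists ordered by median log2 difference; dotted lines mark the shares over all tested genes, 3.43% for rises and 12.9% for falls. Mitotic lists extend farthest to the right and muscle, junction and epithelial lists farthest to the left.

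Many genes of mitosis rose in Brg1-/- fibroblasts. Of the 22 tested mitotic kinases and spindle checkpoint genes, 13 rose and 0 fell, with a median log2 difference of 1.25 after quantile normalization and 0.79 on the deposited scale. Incenp read 307, 349 and 263 on the wild type arrays and 896, 1062, 853 and 872 on the Brg1-/- arrays; it encodes the scaffold of the Aurora B complex and rose by 1.59 ± 0.13 (adjusted p = 7.15e-06). Bub1b, the checkpoint kinase BubR1, was at 178, 73.6 and 121 (wild type) against 792, 1089, 1005 and 648 (Brg1-/-) (2.89 ± 0.28, adjusted p = 2.67e-05). Cdk1, the kinase that drives entry into mitosis, was at 903, 1332 and 913 (wild type) against 3011, 3524, 3591 and 3097 (Brg1-/-) (1.68 ± 0.18, adjusted p = 4.52e-05). In all 3 genes each Brg1-/- array exceeded each wild type array. Plk4, which starts centriole duplication, rose by 1.64 ± 0.17 (adjusted p = 4.65e-05).

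Among 31 tested kinetochore, centromere, condensin and cohesin genes, 13 rose and 1 fell on both scales (median log2 difference 0.89 quantile-normalized, 0.41 deposited). Mki67, the Ki-67 antigen of cycling cells that coats mitotic chromosomes, was at 326, 370.0 and 289 in wild type and 1048, 1372, 1396 and 1066 in Brg1-/- cells (1.89 ± 0.18, adjusted p = 2.41e-05). Spc25, of the Ndc80 complex that binds microtubules, rose by 1.82 ± 0.18, Dsn1, of the Mis12 complex below it, by 1.17 ± 0.12, and the condensin subunit Ncapd2 by 1.83 ± 0.19 (adjusted p from 3.30e-05 to 3.55e-05). Sgo1, shugoshin, which protects cohesin at centromeres, had the largest rise of the list, 3.04 ± 0.52, from 72.7, 11.3 and 41.2 to 297, 234, 289 and 253, with 1 of 3 wild type arrays above background. Zwint, an outer kinetochore protein, fell by 0.82 ± 0.10 (adjusted p = 0.000101), although another, dimmer probe set of Zwint, near background, differed in the opposite direction.

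Of 30 tested genes of mitotic motors, cytokinesis and the anaphase-promoting complex, 16 rose and 0 fell on both scales (median log2 difference 1.11 quantile-normalized, 0.62 deposited). The ubiquitin-conjugating enzyme Ube2c, which works with the anaphase-promoting complex, had the smallest p of this group. Ube2c read 530.3, 629.8 and 500.4 on the wild type arrays and 2033, 2421, 2285 and 1949 on the Brg1-/- arrays (1.97 ± 0.12, adjusted p = 1.88e-06). Cdc20, the activator of that complex, was at 934, 1199.8 and 954 (wild type) against 3594, 5096, 4665 and 3769 (Brg1-/-) (2.05 ± 0.18, adjusted p = 1.35e-05). Both genes were at more than the wild type maximum on each of the 4 Brg1-/- arrays. Kifc1, a minus-end kinesin that bundles spindle poles, showed the largest difference, from 51.5, 29.2 and 65.6 to 562, 465, 553 and 378 (3.39 ± 0.62). Top2a, the topoisomerase that untangles chromosomes, rose by 1.84 ± 0.15 and Stmn1, a microtubule-destabilizing protein, by 1.78 ± 0.19 (adjusted p = 9.21e-06 and 5.12e-05).

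DNA replication genes were also among the rises. Of 53 tested DNA replication and licensing genes, 19 rose and 1 fell on both scales (median log2 difference 0.76 quantile-normalized, 0.27 deposited); after quantile normalization alone 38 passed upward. Mcm5, a subunit of the replicative helicase, was at 254, 339.5 and 295 in wild type and 716, 916, 893 and 800.4 in Brg1-/- cells (1.49 ± 0.17, adjusted p = 6.86e-05). The DNA polymerase delta subunits Pold1 and Pold2 rose by 1.29 ± 0.12 and 1.78 ± 0.18 (adjusted p = 2.25e-05 and 3.30e-05). Pold2 went from 302, 289 and 282 to 1021, 1304, 943 and 804, without overlap. Mcm7, another helicase subunit, rose by 1.14 ± 0.11 (adjusted p = 2.77e-05), and the call of Mcm7 ended on the deposited scale on leaving out 1 array, with an adjusted p of 0.0650 without wild type replicate 3. Orc4, a subunit of the origin recognition complex, was the member that fell, by 0.54 ± 0.13 (adjusted p = 0.00869), and another probe set of Orc4 differed the other way. The number that rose was 11 without wild type replicate 3.

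The promoters of cell cycle genes that rose are shown because mitotic genes share a known architecture, CCAAT boxes bound by NF-Y upstream of a cell cycle homology region (CHR), while replication genes are known for E2F sites. RefSeq promoter windows on GRCm38.p6, each from 250 bases before to 50 bases after the gene's start, were on hand for 6844 of the 8403 tested genes and were searched on both strands for the CHR core TTTGAA, the CCAAT box CCAAT and the E2F site GCGGGAA. The CHR core was found in 24 of 36 (66.7%) windows of mitotic genes that rose, 10 of 36 (27.8%) of mitotic genes tested that did not rise, and 11.5% of all tested genes (18.1% of all promoter windows). CCAAT was in 75% of the first, 50% of the second and 38.4% of tested genes (37.9% of all windows). The E2F site ran the other way in these lists, in 4 of 36 (11.1%) windows of mitotic genes that rose and 8 of 36 (22.2%) of those that did not. The E2F site was in 8 of 16 (50%) windows of replication genes that rose, 9 of 28 (32.1%) of those that did not and 8.72% of tested genes (4.66% of all windows). In the replication genes that rose and those that did not, the CHR core was in 18.8% and 7.14% and CCAAT in 56.2% and 53.6%. The AP-1 motif TGANTCA and the TEAD motif GGAATG were searched as well. AP-1 was in 5.29% of windows of all genes that rose, 6.38% of those that fell and 5% of tested genes (7.93% of all windows), and TEAD in 15.4%, 12.9% and 11.8% (14.6% of all windows). The shares are descriptions of these letters and no test was made.

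The 120 bases before the start are given 5' to 3' on the gene's strand for 3 mitotic genes chosen because they hold both motifs, with matches to the CHR core and the CCAAT box on either strand in capitals. On GRCm38.p6, the Cdc20 window lies at chr4:118437344-118437463 (minus strand), the Cdk1 window lies at chr10:69352913-69353032 (minus strand) and the Ube2c window lies at chr2:164769809-164769928 (plus strand).
Cdc20: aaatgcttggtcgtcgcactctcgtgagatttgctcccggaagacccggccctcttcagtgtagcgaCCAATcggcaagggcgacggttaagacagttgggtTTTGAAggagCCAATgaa
Cdk1: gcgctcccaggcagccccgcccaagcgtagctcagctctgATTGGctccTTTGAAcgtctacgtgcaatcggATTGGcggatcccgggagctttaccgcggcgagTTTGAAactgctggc
Ube2c: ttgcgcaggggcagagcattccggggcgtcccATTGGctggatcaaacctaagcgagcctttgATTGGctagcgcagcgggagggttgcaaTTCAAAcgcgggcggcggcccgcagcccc
For the replication genes Uhrf1, a factor that brings the maintenance DNA methyltransferase to replicated DNA, and Prim1, the primase, chosen for their E2F site, the capitals mark the E2F site alone. On the same build, the Uhrf1 window lies at chr17:56303217-56303336 (plus strand) and the Prim1 window lies at chr10:128015095-128015214 (plus strand).
Uhrf1: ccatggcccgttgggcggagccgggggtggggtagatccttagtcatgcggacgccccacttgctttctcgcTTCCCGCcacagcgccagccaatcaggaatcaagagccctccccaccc
Prim1: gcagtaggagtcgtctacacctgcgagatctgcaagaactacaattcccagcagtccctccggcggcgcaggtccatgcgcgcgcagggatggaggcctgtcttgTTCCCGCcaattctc
Uhrf1 rose by 1.46 ± 0.20 and Prim1 by 1.20 ± 0.19 (adjusted p = 0.000291 and 0.000683). Both sites read on the strand opposite to the gene, and both stand in a window that also holds a CCAAT box, which in Prim1 overlaps the E2F site.

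Regulators of the cycle divided. Of 35 tested cyclins, kinase inhibitors and Rb and E2F family genes, 6 rose and 6 fell on both scales (median log2 difference 0.20 quantile-normalized, -0.29 deposited). After quantile normalization alone 14 were higher and 6 lower, and on the deposited scale alone 6 and 11. The rises were Ccnb2, Ccna2, Ccnf, Cks2, Foxm1 and Cdkn2c. Cyclin B2 (Ccnb2) was at 292, 240.0 and 292 in wild type and 1059, 1389.8, 1419 and 1116 in Brg1-/- cells (2.18 ± 0.18, adjusted p = 7.15e-06). Cyclin A2 (Ccna2) rose by 1.63 ± 0.13, cyclin F (Ccnf), a ubiquitin ligase subunit, by 1.53 ± 0.17 and Cks2, a small subunit of cyclin-dependent kinases, by 1.68 ± 0.12 (adjusted p from 2.31e-06 to 7.51e-05). The transcription factor Foxm1, which drives late cell cycle genes, rose by 1.01 ± 0.17, but its deposited-scale call was lost on leaving out any 1 of 7 arrays (adjusted p from 0.0543 to 0.152). Cdkn2c, the Cdk4 and Cdk6 inhibitor p18, also rose, by 1.94 ± 0.25 (adjusted p = 0.000149).

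Of the 6 falls, 3 were of inhibitors of cyclin-dependent kinases. Cdkn1c (p57), an imprinted inhibitor, was at 924, 703 and 684 (wild type) against 207, 252, 256 and 200.3 (Brg1-/-) (-1.75 ± 0.20, adjusted p = 8.02e-05). Cdkn1a (p21) was at 7683, 7213 and 8271 (wild type) against 5229.6, 4531, 4427 and 5884 (Brg1-/-) (-0.63 ± 0.10, adjusted p = 0.000805), and Cdkn2b (p15) fell by 0.61 ± 0.15 (adjusted p = 0.00998). The 3 inhibitors were lower on each Brg1-/- array than on any wild type array. Cyclin D1 (Ccnd1), the growth factor-responsive partner of Cdk4, fell as well, by 0.86 ± 0.21 (adjusted p = 0.00885), as did E2f5, a repressive E2F, by 0.39 ± 0.14, close to the threshold (adjusted p = 0.0485). Ccng1 (cyclin G1), a p53 target, fell by 0.25 ± 0.07 (adjusted p = 0.0167), while another bright probe set of Ccng1 differed by 0.24 in the opposite direction.

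Targets of p53 showed no single direction. Of 34 tested p53 targets, 4 rose and 6 fell on both scales (median log2 difference 0.20 quantile-normalized, -0.38 deposited). After quantile normalization alone 12 were higher and 6 lower, and on the deposited scale alone 4 and 15. Igfbp3, which binds insulin-like growth factors, was at 281, 236 and 271 (wild type) against 1051, 1121, 1193 and 1414 (Brg1-/-) (2.18 ± 0.17, adjusted p = 4.99e-06), and Dcxr, a xylulose reductase, rose by 1.72 ± 0.11 (adjusted p = 2.06e-06). Bbc3 (PUMA), a cell death activator, rose by 1.51 ± 0.30. Against these, Perp, a desmosome-associated p53 target, was at 1168, 823 and 929 (wild type) against 243, 119.7, 154 and 230.1 (Brg1-/-) (-2.43 ± 0.23, adjusted p = 2.46e-05), and the epoxide hydrolase Ephx1 fell by 1.25 ± 0.23 (adjusted p = 0.00210). Igfbp3 and Perp were each without overlap between the genotypes. Ei24, an endoplasmic reticulum protein, and Sesn2, a stress sensor, differed by 0.80 ± 0.09 and 0.59 ± 0.14 without a call on the deposited scale.

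Many contractile genes fell. Of 47 tested contractile and actin cytoskeleton genes, 1 rose and 17 fell on both scales (median log2 difference -0.11 quantile-normalized, -0.67 deposited). Beside Acta1, Lmod1, an actin nucleator of smooth muscle, was at 484, 379 and 372 in wild type and 186, 139.6, 101 and 99.4 in Brg1-/- cells (-1.68 ± 0.29, adjusted p = 0.00120), and Lpp, a focal adhesion LIM protein, fell by 0.93 ± 0.15 (adjusted p = 0.000858). The smooth muscle genes Mylk (myosin light chain kinase), Myh11 (smooth muscle myosin), Cnn1 (calponin) and Actg2 (gamma-actin) fell by 1.56 ± 0.28, 1.31 ± 0.25, 1.41 ± 0.40 and 1.05 ± 0.22 (adjusted p from 0.00173 to 0.0218). Lima1, an actin filament stabilizer, was the member that rose, from 1464, 1459 and 1362 to 3599, 3419, 3766 and 3338 (1.30 ± 0.12, adjusted p = 1.99e-05). Mrtfa, the actin-sensing cofactor of serum response factor, and the LIM protein Csrp2 differed by 0.46 ± 0.09 and 0.69 ± 0.14, past the threshold on the quantile-normalized scale only. The number that fell was 8 without wild type replicate 1, wild type replicate 2 or Brg1-/- replicate 3, 9 without Brg1-/- replicate 2 and 10 without wild type replicate 3. The mean level of the list on Brg1-/- replicate 1, 0.10 in log2 against the mean of the 7 arrays, stood close to the wild type arrays (0.15 to 0.25), while the other Brg1-/- arrays were at -0.28 to -0.17.

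Promoters of genes that fell in the contractile and adhesion lists are shown for the serum response factor motif, the CArG box, searched on both strands by its usual consensus. It was found in 5 of 30 (16.7%) windows of genes that fell, 7 of 51 (13.7%) of genes of these lists that did not fall, 1.45% of all tested genes and 1.57% of all windows. Capitals mark the CArG box. On GRCm38.p6, the Acta1 window lies at chr8:123894776-123894895 (minus strand) and the Cnn2 window lies at chr10:79988480-79988599 (plus strand).
Acta1: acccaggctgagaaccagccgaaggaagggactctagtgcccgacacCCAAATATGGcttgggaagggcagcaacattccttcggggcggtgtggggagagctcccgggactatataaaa
Cnn2: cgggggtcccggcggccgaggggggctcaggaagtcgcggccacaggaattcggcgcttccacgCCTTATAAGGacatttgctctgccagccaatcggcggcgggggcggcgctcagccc
Cnn2, a calponin of non-muscle cells, fell by 0.25 ± 0.08 (adjusted p = 0.0284), much less than Acta1. The share with the motif in genes that fell was close to that in genes of the same lists that did not. In the same lists AP-1 was in 13.3% of windows of genes that fell and 7.84% of the others, and TEAD in 16.7% and 19.6%.

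Many genes of cell-matrix adhesion fell. Of 33 tested integrin and focal adhesion genes, 1 rose and 13 fell on both scales (median log2 difference -0.22 quantile-normalized, -0.86 deposited). The fibronectin receptor subunit Itga5 fell by 1.36 ± 0.20, the laminin receptor subunits Itga3 and Itga6 by 1.73 ± 0.20 and 1.38 ± 0.12, and Cd151, a tetraspanin that binds them, by 1.13 ± 0.14 (adjusted p from 8.96e-06 to 0.000462). Itga3 read 768, 547 and 539 on the wild type arrays and 246, 168, 141 and 196 on the Brg1-/- arrays, with no overlap. The vitronectin receptor subunit Itgb5 went the other way, from 2901, 3463 and 2993 to 8139.6, 7827, 7389.7 and 7748 (1.32 ± 0.09, adjusted p = 2.31e-06). It was the member of the list that rose. Cd9, another tetraspanin, differed by 0.49 ± 0.17 (adjusted p = 0.0453) and missed the threshold on the deposited scale.

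Of 22 tested cadherin and cell junction genes, 1 rose and 13 fell on both scales (median log2 difference -0.42 quantile-normalized, -0.95 deposited). F11r, the junctional adhesion molecule JAM-A, was at 514, 492 and 543 in wild type and 154, 121, 109 and 114 in Brg1-/- cells (-2.06 ± 0.20, adjusted p = 2.25e-05), although a probe set of F11r near background differed in the opposite direction. Pcdh7, a protocadherin, fell by 1.14 ± 0.16 and N-cadherin (Cdh2), the main cadherin of fibroblasts, by 0.64 ± 0.13 (adjusted p = 0.000332 and 0.00284). P-cadherin (Cdh3) was the exception, from 204, 155 and 142 to 562, 638, 374 and 464 (1.60 ± 0.20, adjusted p = 0.000155). Of 23 tested YAP and TEAD targets, genes that respond to cell shape and adhesion, 1 rose and 5 fell (median -0.14, deposited -0.66). Ccn2 (CTGF), the best known of them, went from 16804, 14422 and 13989 to 7571, 4915, 4263 and 5975 (-1.44 ± 0.17, adjusted p = 9.64e-05), and tissue factor (F3) fell by 1.14 ± 0.15 (adjusted p = 0.000188). Ccn1, a close relative of Ccn2, differed by 0.50 ± 0.14 without a call on the deposited scale; the member that rose was Igfbp3.

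In the extracellular matrix, single genes moved far in both directions. Of 44 tested elastic fibre, matricellular and proteoglycan genes, 5 rose and 10 fell on both scales (median log2 difference 0.02 quantile-normalized, -0.35 deposited). The fibulins separated: Efemp1 (fibulin-3) was at 2637, 2078 and 2566 in wild type and 330.5, 431, 430.1 and 393 in Brg1-/- cells (-2.62 ± 0.13, adjusted p = 6.21e-07), while Fbln5, needed for elastic fibre assembly, went from 2559, 2907 and 2511 to 8863, 7836, 8201 and 7827 (1.62 ± 0.09, adjusted p = 9.79e-07). Neither gene overlapped between the genotypes. Fbn2, the fibrillin of embryonic microfibrils, rose by 2.46 ± 0.16 and Ogn (osteoglycin), a small leucine-rich proteoglycan, by 2.32 ± 0.15 (adjusted p = 2.00e-06 and 2.31e-06). Nid1, a basement membrane linker, and Bgn (biglycan) fell by 0.96 ± 0.16 and 0.94 ± 0.16 (adjusted p = 0.000962 and 0.00122). The number that fell was 6 without wild type replicate 3 or Brg1-/- replicate 2. Postn (periostin) differed by 0.72 ± 0.16 and missed the threshold on the deposited scale.

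Of 24 tested collagens, 1 rose and 2 fell on both scales (median log2 difference 0.02 quantile-normalized, -0.39 deposited). These shares, 4.17% and 8.33%, stand beside 3.43% and 12.9% of all tested genes. Col11a1, a fibril-nucleating collagen best known from cartilage, was at 749.8, 535 and 568 (wild type) against 3269.8, 2188, 2685 and 2592 (Brg1-/-) (2.12 ± 0.15, adjusted p = 2.35e-06). The fibrillar collagen Col3a1 differed by 1.12 ± 0.22 (adjusted p = 0.00307), with 14704 on Brg1-/- replicate 4 against 6664, 7870.1 and 8863 on the others, and was not past the threshold on the deposited scale. Over the 24 collagens the mean level of Brg1-/- replicate 4 stood 0.41 above the 7-array mean in log2, apart from the other 6 arrays (-0.15 to -0.01). The members that fell, Col4a2 of basement membranes by 0.46 ± 0.13 and Col12a1 by 0.60 ± 0.18, were less firm: the call of Col4a2 ended on the quantile-normalized scale on leaving out single arrays, with an adjusted p of 0.0688 without wild type replicate 1 and 0.0530 without wild type replicate 2, and the call of Col12a1 ended on the quantile-normalized scale on leaving out single arrays, with an adjusted p of 0.0853 without wild type replicate 2, 0.107 without wild type replicate 3, 0.0647 without Brg1-/- replicate 1, 0.0697 without Brg1-/- replicate 2 and 0.0713 without Brg1-/- replicate 3.

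Many matrix-degrading enzymes and their partners fell. Of 41 tested matrix cross-linking enzymes, proteases and inhibitors, 1 rose and 13 fell on both scales (median log2 difference -0.23 quantile-normalized, -0.76 deposited). Cathepsin K (Ctsk), a collagen-cleaving protease, was at 1147, 1453 and 1463 in wild type and 153, 259, 210.2 and 258 in Brg1-/- cells (-2.64 ± 0.21, adjusted p = 6.68e-06), without overlap. The list also held Mmp13 and Serpinb2 from the largest falls. Mmp3 (stromelysin 1) fell by 2.93 ± 0.72, the urokinase receptor Plaur by 1.47 ± 0.23, and Timp2, an inhibitor of metalloproteinases, by 0.75 ± 0.09 (adjusted p from 0.000132 to 0.00997). Adamts4, an aggrecanase, was the member that rose (1.54 ± 0.39, adjusted p = 0.0114); the call of Adamts4 ended on leaving out 1 array, with an adjusted p of 0.116 without wild type replicate 2. The transglutaminase Tgm2 and the metalloprotease Adamts1 differed by 0.87 ± 0.10 and 1.05 ± 0.14 without a call on the deposited scale.

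Immediate early genes, which answer growth signals within minutes, divided by gene. Of 27 tested AP-1 and immediate early genes, 5 rose and 4 fell on both scales (median log2 difference 0.13 quantile-normalized, -0.35 deposited). Fos, a subunit of AP-1, was at 179, 199 and 221 in wild type and 1169, 1260.3, 1404 and 1026 in Brg1-/- cells (2.60 ± 0.17, adjusted p = 2.00e-06), and Egr1, a zinc finger factor, at 974, 1046 and 530.3 (wild type) against 2290.4, 2576, 2794 and 3092 (Brg1-/-) (1.71 ± 0.20, adjusted p = 0.000103). The related Egr2 rose by 1.93 ± 0.24. Fosl1 (Fra-1), the AP-1 subunit of sustained signalling, fell by 0.79 ± 0.15 (adjusted p = 0.00289), as did the small Maf protein Maff by 1.48 ± 0.19 and Klf10, a TGF-beta-induced factor, by 1.01 ± 0.21. Fos and Fosl1, members of one family, differed from wild type in opposite directions.

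Of the growth factor signalling genes that passed, most fell. Of 30 tested genes of FGF, PDGF and VEGF signalling, 1 rose and 12 fell on both scales (median log2 difference -0.54 quantile-normalized, -0.98 deposited). Bdnf, a neurotrophin counted with this list, was at 1448, 1356 and 1195 (wild type) against 403, 241, 292 and 198 (Brg1-/-) (-2.28 ± 0.20, adjusted p = 1.48e-05), and Flt4, the receptor for the lymphatic growth factor Vegfc, fell by 1.42 ± 0.18 (adjusted p = 0.000131). Vegfc itself fell by 1.33 ± 0.35 and the PDGF receptor Pdgfrb by 0.84 ± 0.16, and the ligands Pdgfa and Pdgfc by 0.68 ± 0.15 and 0.81 ± 0.19 (adjusted p from 0.00274 to 0.0140). Pdgfra, the receptor for the A ligand, differed the other way by 1.24 ± 0.41, at 167, 143 and 234 (wild type) against 182, 554, 565 and 539 (Brg1-/-), with Brg1-/- replicate 1 inside the wild type range, and missed the threshold on the deposited scale. Of 24 tested genes of the EGF family and of MAPK feedback, 2 rose and 7 fell on both scales (median log2 difference -0.21 quantile-normalized, -0.67 deposited). Ereg (epiregulin), an EGF receptor ligand, was at 938, 930.3 and 844 (wild type) against 312, 318, 266 and 307 (Brg1-/-) (-1.59 ± 0.12, adjusted p = 4.91e-06). Errfi1, a feedback inhibitor of that receptor, rose by 1.14 ± 0.12 and the phosphatase Dusp14 fell by 0.93 ± 0.23 (adjusted p = 3.30e-05 and 0.00930). The number of EGF family and feedback genes that fell was 2 without wild type replicate 1 and 4 without wild type replicate 2.

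Imprinted genes and the insulin-like growth factor axis moved in both directions. Of 29 tested imprinted and insulin-like growth factor genes, 5 rose and 9 fell on both scales (median log2 difference 0.04 quantile-normalized, -0.45 deposited). Meg3, a maternally expressed long non-coding RNA, was at 2528, 2608 and 2597 in wild type and 8233, 6804, 6761 and 9692 in Brg1-/- cells (1.59 ± 0.17, adjusted p = 4.67e-05). Dlk1, the paternally expressed gene of the same imprinted cluster, rose by 2.31 ± 0.37 (adjusted p = 0.000831). Mest, another paternally expressed gene, rose by 1.86 ± 0.21, while Peg3, a paternally expressed zinc finger gene, was at 2614, 2265 and 2420.5 (wild type) against 820.3, 1177, 1113 and 893 (Brg1-/-) (-1.30 ± 0.14). Mest and Peg3, expressed from the same parental allele, were thus at opposite signs (adjusted p = 6.60e-05 and 4.71e-05). Ndn (necdin) fell by 0.97 ± 0.12, although other probe sets of Ndn, near background, differed the other way. Among binding proteins, Igfbp3 rose and Igfbp7, Igfbp6 and Igfbp5 fell by 1.44 ± 0.21, 0.97 ± 0.21 and 1.13 ± 0.29 (adjusted p from 0.000453 to 0.0122). Another probe set of Igfbp5 differed by only -0.16, with means of 258 in wild type and 222 in Brg1-/- cells.

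Of 40 tested genes of TGF-beta, BMP and activin signalling, 2 rose and 8 fell on both scales (median log2 difference -0.10 quantile-normalized, -0.56 deposited). Among ligands, Tgfb3 was at 2721, 2509.8 and 2293 (wild type) against 7335, 5316, 5704 and 7335 (Brg1-/-) (1.34 ± 0.13, adjusted p = 2.46e-05), while Tgfb1 fell by 1.01 ± 0.24 and Inhbb, an activin subunit, by 1.57 ± 0.20 (adjusted p = 0.00902 and 0.000179). The extracellular BMP antagonist Grem1 fell by 1.52 ± 0.24 and the TGF-beta co-receptor Eng (endoglin) by 0.72 ± 0.15 (adjusted p = 0.000814 and 0.00477). Id3, a direct BMP target, and Smad4, the shared transducer, differed by 0.77 ± 0.17 and 0.59 ± 0.13 without a call on the deposited scale. Another bright probe set of Smad4 differed by -0.05, with means of 1259 in wild type and 1215 in Brg1-/- cells. The number that fell was 4 without wild type replicate 1 and 5 without wild type replicate 2, wild type replicate 3 or Brg1-/- replicate 2. Of 41 tested Wnt pathway genes, 3 rose and 4 fell on both scales (median log2 difference 0.24 quantile-normalized, -0.17 deposited). Beside Wnt16, Sfrp2, a secreted Wnt modulator, went from 427, 677 and 638 to 3734, 2715, 3575 and 5133 (2.70 ± 0.55, adjusted p = 0.00346), without overlap. The receptor gene Fzd7 fell by 0.54 ± 0.10 (adjusted p = 0.00214), and the receptor gene Fzd2 rose by 1.19 ± 0.13 (adjusted p = 4.86e-05), a call lost on the deposited scale without wild type replicate 2 (adjusted p = 0.0829). Another probe set of Fzd7 differed by only -0.008, with means of 166 in wild type and 162 in Brg1-/- cells. The number of Wnt pathway genes that fell was 2 without wild type replicate 1, wild type replicate 2, wild type replicate 3, Brg1-/- replicate 1 or Brg1-/- replicate 3. Of 10 tested Hedgehog genes Gas1 alone passed on both scales, with Evc, a cilium protein, and Smo, the signal transducer, at 0.69 ± 0.16 and 0.44 ± 0.15. Of 15 tested Notch genes 1, Notch3, passed (0.90 ± 0.10, adjusted p = 7.99e-05), and its deposited-scale call was lost without any 1 of 8 of the 10 arrays (highest adjusted p 0.167, without wild type replicate 2).

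Of 19 tested Hox genes, 2 rose and 0 fell on both scales (median log2 difference 0.32 quantile-normalized, -0.11 deposited). Both were 5' genes of the HoxD cluster, which pattern the distal limb. Hoxd13 was at 151, 169.6 and 182 in wild type and 395, 394, 542 and 604 in Brg1-/- cells (1.51 ± 0.27, adjusted p = 0.00167). Hoxd11 rose by 1.52 ± 0.36 (adjusted p = 0.00791), and its deposited-scale call ended with an adjusted p of 0.129 without wild type replicate 2, 0.0849 without wild type replicate 3 and 0.0670 without Brg1-/- replicate 4. Of 52 tested mesenchymal and patterning transcription factors, 4 rose and 3 fell on both scales (median log2 difference 0.21 quantile-normalized, -0.28 deposited). The shares that rose, 10.5% of Hox genes and 7.69% of these factors, and those that fell, 0% and 5.77%, stand beside 3.43% and 12.9% of all tested genes. Nfib, a nuclear factor I protein, was at 524, 533 and 533 (wild type) against 1077, 1604, 1729 and 1814 (Brg1-/-) (1.53 ± 0.19, adjusted p = 0.000129), and Osr1, an odd-skipped factor of limb connective tissue, rose by 1.42 ± 0.19 (adjusted p = 0.000188). Msx2, a BMP-responsive homeobox gene, fell by 1.34 ± 0.21 and Zeb2, a repressor of epithelial genes, by 0.92 ± 0.23 (adjusted p = 0.000765 and 0.0108). Nr2f2 and Twist1 differed by 1.00 ± 0.17 and 0.40 ± 0.13 and missed the threshold on the deposited scale.

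Of 31 tested axon guidance ligands and receptors, 1 rose and 6 fell on both scales (median log2 difference -0.02 quantile-normalized, -0.60 deposited). Slit3, a secreted guidance ligand, was at 434, 578 and 536 (wild type) against 1332, 1424, 1446 and 1575 (Brg1-/-) (1.49 ± 0.11, adjusted p = 3.99e-06), with every Brg1-/- array above the wild type arrays. Efnb2, a membrane-bound ephrin, went from 938, 860.0 and 749 to 269, 288, 223 and 240.0 (-1.74 ± 0.19, adjusted p = 5.52e-05). Sema3a, a repulsive semaphorin, and the ephrin receptor Epha2 fell by 0.93 ± 0.16 and 0.95 ± 0.18 (adjusted p = 0.00127 and 0.00269).

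A group of interferon-induced genes rose. Of 43 tested interferon-induced genes, 13 rose and 1 fell on both scales (median log2 difference 0.90 quantile-normalized, 0.49 deposited). Irf9, the DNA-binding subunit of the ISGF3 factor that interferon activates, was at 185, 207 and 152 in wild type and 436, 518, 420.4 and 512 in Brg1-/- cells (1.38 ± 0.16, adjusted p = 7.99e-05). Ifi35, Parp12 and Parp9, which interferon induces, rose by 1.24 ± 0.17, 1.52 ± 0.21 and 1.72 ± 0.24 (adjusted p from 0.000276 to 0.000338). Irf7, the factor that amplifies interferon production, rose by 1.25 ± 0.28, Ifit1, which binds foreign RNA, by 2.49 ± 0.50, and Usp18, a negative regulator, by 1.42 ± 0.46 (adjusted p from 0.00342 to 0.0358). Parp9 values were 137, 197 and 213 (wild type) against 564, 620.3, 615 and 559 (Brg1-/-), without overlap. On each Brg1-/- array the mean level of the list was 0.30 to 0.41 in log2 above the 7-array mean, and on the wild type arrays it was -0.61 to -0.37. Macrophage and leukocyte markers did not follow this order: their list mean was 0.72 on Brg1-/- replicate 1 and -0.46 on Brg1-/- replicate 3.

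Of 34 tested chemokine, cytokine and NF-kB target genes, 5 rose and 4 fell on both scales (median log2 difference -0.18 quantile-normalized, -0.63 deposited). The rises included Ccl5 and Cxcl10 above, and the interleukin 1 receptor Il1r1, at 86.1, 89.7 and 191 (wild type) against 335, 335, 486 and 514 (Brg1-/-) (1.84 ± 0.28, adjusted p = 0.000575). Ptgs2 (cyclooxygenase 2) and Tnfaip2, both NF-kB targets, fell by 1.52 ± 0.32 and 1.19 ± 0.28 (adjusted p = 0.00485 and 0.00770). The number that fell was 2 without wild type replicate 2 or wild type replicate 3 and 10 without Snf5-/- replicate 2. Of 26 tested MHC class I and complement genes, 3 rose and 3 fell on both scales (median log2 difference 0.52 quantile-normalized, 0.10 deposited). C1ra, a protease of the C1 complement complex, was at 78.3, 77.2 and 90.5 (wild type) against 458, 348, 562 and 649 (Brg1-/-) (2.59 ± 0.31, adjusted p = 0.000118), without overlap, and Masp1, a protease of the lectin pathway, fell by 0.82 ± 0.16 (adjusted p = 0.00314). The antigen processing genes Tap2 and Psme1 differed by 0.87 ± 0.17 and 0.65 ± 0.12 without a call on the deposited scale.

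Several genes of glycolysis and of stress responses fell, and the calls of respiration genes depended on the scale. Of 31 tested genes of glycolysis and the hypoxia response, 1 rose and 10 fell on both scales (median log2 difference -0.23 quantile-normalized, -0.70 deposited). Pgam1, a glycolytic mutase, was at 7648, 8680.2 and 7919 in wild type and 4553, 5040.4, 5229.6 and 4496 in Brg1-/- cells (-0.74 ± 0.09, adjusted p = 8.02e-05), a modest difference with no overlap. Aldoa (aldolase) fell by 0.52 ± 0.09 and the phosphofructokinase Pfkp by 0.73 ± 0.15 (adjusted p = 0.00200 and 0.00322). The glucose transporter Slc2a3 rose by 1.31 ± 0.24 (adjusted p = 0.00184), a call lost on the deposited scale without wild type replicate 2 (adjusted p = 0.0595). The number that fell was 4 without wild type replicate 2 and 6 without wild type replicate 3. Of 56 tested oxidative phosphorylation subunits, 0 rose and 1 fell on both scales (median log2 difference 0.15 quantile-normalized, -0.45 deposited). After quantile normalization alone 14 were higher and 1 lower, and on the deposited scale alone 0 and 32. Of all tested genes, 14.9% were higher and 12.9% lower after quantile normalization, and 3.43% and 44.1% on the deposited scale. Cox5b differed by 0.62 ± 0.07, and on the deposited scale by 0.02 without a call.

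Of 48 tested genes of the unfolded protein response and targets of ATF4 and NRF2, 2 rose and 15 fell on both scales (median log2 difference -0.20 quantile-normalized, -0.72 deposited). Gstm2, a glutathione transferase, was at 366, 369 and 334 (wild type) against 123, 158, 132 and 97.7 (Brg1-/-) (-1.50 ± 0.17, adjusted p = 7.63e-05), and Atf5, a stress-induced factor, fell by 0.77 ± 0.12 (adjusted p = 0.000831). Nqo1, a quinone reductase that NRF2 controls, fell by 1.12 ± 0.26, whereas Srxn1, a sulfiredoxin also under NRF2, was at 693, 845 and 1097 (wild type) against 1819, 1889.5, 1856 and 2157 (Brg1-/-) (1.16 ± 0.14, adjusted p = 0.000120). Gstm2 and Srxn1 did not overlap between the genotypes. Of 37 tested genes of cholesterol and fatty acid synthesis, 2 rose and 3 fell on both scales (median log2 difference 0.07 quantile-normalized, -0.48 deposited). Sc5d, a sterol desaturase, fell by 0.72 ± 0.17 (adjusted p = 0.00871), and Scap, the sterol sensor, differed by 0.47 ± 0.09 without a deposited-scale call. Of 39 tested MYC-dependent genes of ribosome biogenesis, 1 rose and 2 fell on both scales (median log2 difference 0.06 quantile-normalized, -0.45 deposited). Cad, which starts pyrimidine synthesis, rose from 927, 949 and 971 to 2441, 2293, 2321 and 2056 (1.26 ± 0.09, adjusted p = 3.96e-06), while Utp20, Srm and Gar1 of ribosome and polyamine synthesis differed by 0.75 ± 0.10, 0.37 ± 0.07 and 0.57 ± 0.16 and missed the threshold on the deposited scale.

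Among chromatin genes outside SWI/SNF, several histone variants and chromatin proteins of cycling cells rose. Of 21 tested genes of DNA methylation and histone variants, 5 rose and 1 fell on both scales (median log2 difference 0.56 quantile-normalized, 0.14 deposited). Hmgb2, a DNA-bending protein, was at 157, 189.8 and 265 in wild type and 848, 1268, 1088 and 853 in Brg1-/- cells (2.33 ± 0.21, adjusted p = 1.71e-05), and the histone variant H2az2 rose by 1.40 ± 0.14 (adjusted p = 3.22e-05). Hmga2, an embryonic architectural protein, fell by 0.78 ± 0.15 (adjusted p = 0.00247). Of 16 tested ATPases of other chromatin remodellers, 1 rose and 0 fell on both scales (median log2 difference 0.29 quantile-normalized, -0.19 deposited). That gene was Rad54l, a recombination ATPase (1.78 ± 0.36, adjusted p = 0.00346), and Atrx, Smarcal1 and Hltf differed by 0.66 ± 0.15, 0.46 ± 0.12 and 0.62 ± 0.16 without a deposited-scale call. Of 21 tested genes of the Polycomb repressive complexes, 1 rose and 0 fell on both scales (median log2 difference 0.25 quantile-normalized, -0.27 deposited). Rnf2 (RING1B), the ubiquitin ligase of Polycomb repressive complex PRC1, rose by 1.25 ± 0.16 (adjusted p = 0.000138), a call lost on the deposited scale without wild type replicate 2 (adjusted p = 0.0553). Ezh2, Suz12 and Phc1 differed by 0.69 ± 0.15, 0.48 ± 0.12 and 0.80 ± 0.14, past the threshold on the quantile-normalized scale only.

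The labelled cell type and the other cells that such cultures can hold were checked by markers. The fibroblast genes Col1a1, Col1a2 and Vim were among the bright genes of every array. Col1a1 was at 16553, 16505 and 16209 in wild type and 14704, 12426, 12758 and 18342 in Brg1-/- cells and Vim at 28884, 29478 and 29478 (wild type) against 26812, 27216, 27628 and 28118 (Brg1-/-). Of 17 tested fibroblast markers, 0 rose and 2 fell on both scales (median log2 difference -0.07 quantile-normalized, -0.43 deposited); those that fell were Pdgfrb and S100a4 (Fsp1), the latter from 13395, 19250.0 and 18993 to 2150.5, 3333, 3485 and 4072 (-2.42 ± 0.30, adjusted p = 0.000142). In bulk RNA, fewer cells of a type and less RNA per cell cannot be told apart. Of 14 tested epithelial, cornified and mesothelial markers, 0 rose and 7 fell on both scales (median log2 difference -1.64 quantile-normalized, -2.05 deposited). Beside Dsp, Msln and Perp, Lce1h, a cornified envelope gene, was at 3521, 2979 and 3088 (wild type) against 697, 699.6, 577 and 264 (Brg1-/-) (-2.61 ± 0.29, adjusted p = 5.97e-05), and Krt18, a keratin of simple epithelia, fell by 1.67 ± 0.39 (adjusted p = 0.00740). The mean level of the epithelial list was 0.75 to 0.83 on the wild type arrays and -0.70 to -0.53 on the Brg1-/- arrays. The summed intensity of the list was 6161 to 7364 on the wild type arrays and 1771 to 2414 on the Brg1-/- arrays. Lce1h alone gave 2979 to 3521 of the wild type sums and 264 to 699.6 of the Brg1-/- sums. The junction list, which shares Dsp with this list, and the adhesion list also had lower mean levels on every Brg1-/- array. The defining markers of epithelium were too dim to be tested: Cdh1 (E-cadherin) was at 20.002 ± 9.97 in wild type (SD, n = 3) and 10.8 ± 5.21 in Brg1-/- cells (n = 4), and Epcam at 4.88 ± 0.610 in wild type (SD, n = 3) and 8.31 ± 2.19 in Brg1-/- cells (n = 4). Krt14, a keratin of basal epidermis, was likewise untested, at 50.02 ± 10.9 in wild type (SD, n = 3) and 46.5 ± 16.4 in Brg1-/- cells (n = 4).

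Of 16 tested macrophage and leukocyte markers, 2 rose and 0 fell on both scales (median log2 difference -0.01 quantile-normalized, -0.42 deposited). Both were chains of complement C1q, C1qb and C1qc, at 1.39 ± 0.37 and 1.58 ± 0.52 (adjusted p = 0.0147 and 0.0399). Neither call held when arrays were left out: the call of C1qb ended on leaving out single arrays, with an adjusted p of 0.0682 without wild type replicate 1, 0.0958 without wild type replicate 2 and 0.0858 without Brg1-/- replicate 1, and the call of C1qc ended on leaving out single arrays, with an adjusted p of 0.102 without wild type replicate 1, 0.112 without wild type replicate 2, 0.0768 without wild type replicate 3, 0.0927 without Brg1-/- replicate 1, 0.0831 without Brg1-/- replicate 2 and 0.0783 without Brg1-/- replicate 4. The macrophage receptor Csf1r was at 357, 654 and 414 (wild type) against 606, 489, 305 and 469 (Brg1-/-) (-0.02 ± 0.36, adjusted p = 0.976), with overlap, and Lyz2 varied from 837 to 3274 among the Brg1-/- arrays alone. The summed intensity of the list was 3234 to 6746 on the wild type arrays and 3039.8 to 7326 on the Brg1-/- arrays, and the pan-leukocyte marker Ptprc was too dim to be tested, at 79.8 ± 30.7 in wild type (SD, n = 3) and 64.3 ± 19.9 in Brg1-/- cells (n = 4). Of 6 tested endothelial markers, 1 rose and 2 fell on both scales (median log2 difference 0.13 quantile-normalized, -0.29 deposited). The defining endothelial markers Pecam1 and Cdh5 were too dim to be tested, with means of 28.1 ± 21.5 and 46 ± 10.2 in wild type (SD, n = 3) and 17.7 ± 10.2 and 44.3 ± 8.65 in Brg1-/- cells (n = 4). The receptor Tek rose by 1.89 ± 0.31, and Eng and Kdr, the main VEGF receptor, fell by 0.72 ± 0.15 and 0.79 ± 0.19 (adjusted p from 0.000911 to 0.00938). Of 11 tested neural and glial markers, 0 rose and 3 fell on both scales (median log2 difference -0.14 quantile-normalized, -0.55 deposited). Nes (nestin), an intermediate filament protein, was at 1306, 1046 and 1084 (wild type) against 622, 485, 478 and 459.8 (Brg1-/-) (-1.17 ± 0.23, adjusted p = 0.00277), and Gap43 fell by 1.09 ± 0.26 (adjusted p = 0.00798). Of 5 tested skeletal and cardiac muscle markers 3 fell, Acta1 among them, and Myod1, which defines skeletal muscle, was too dim to be tested, at 78 ± 15.7 in wild type (SD, n = 3) and 49.7 ± 8.54 in Brg1-/- cells (n = 4). Of 10 tested cartilage, bone and fat lineage markers 0 passed on the quantile-normalized scale and 2, both lower, on the deposited scale.

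The arrays of a genotype were not equal in every list. The mean of the mitotic kinase list ranged from 0.33 to 0.72 over the Brg1-/- arrays, all above the wild type range of -0.75 to -0.52. In contrast, the matrix protease list had 0.05 on Brg1-/- replicate 4 against -0.34, -0.26 and -0.34 on the others. Replicate 4 also had the highest mean of collagens, of elastic fibre genes (0.39) and of fibroblast markers (0.30), and replicate 1 the lowest mean of fibroblast markers (-0.45).

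**Figure D4:**
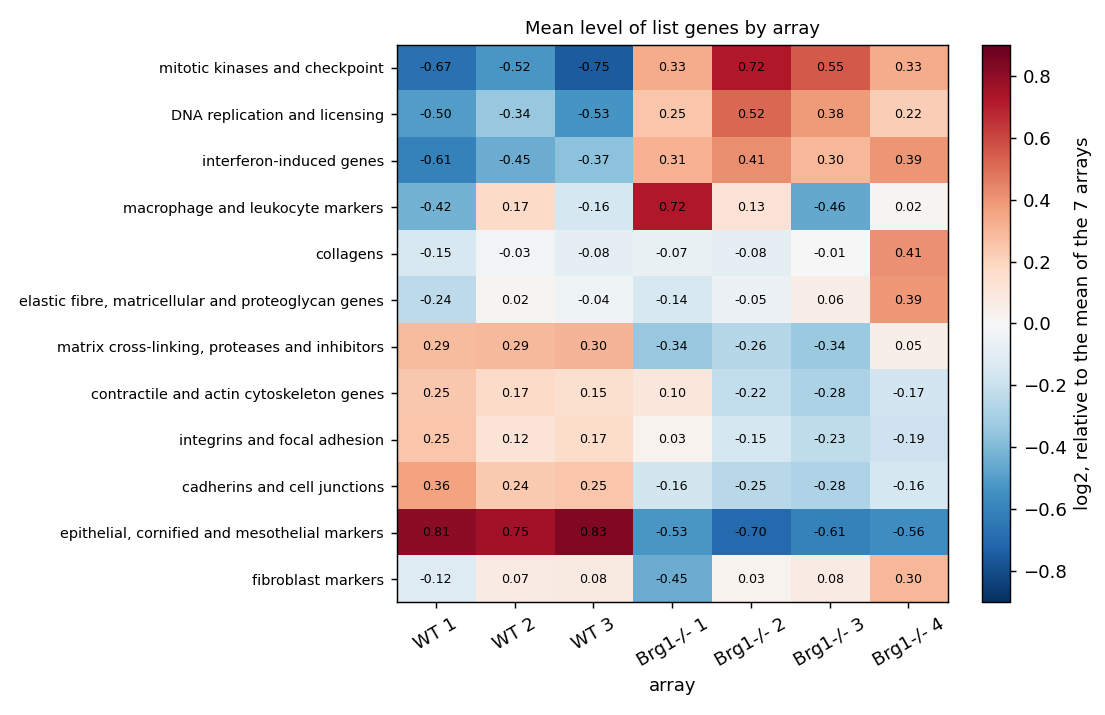
Mean quantile-normalized log2 level of the tested genes of 12 lists (rows) on each of the 7 arrays (columns), relative to the mean of those arrays; red is higher and blue lower, and each cell prints its value. Mitotic, replication and interferon rows separate all wild type from all Brg1-/- columns, whereas collagens stand apart on Brg1-/- replicate 4 (0.41) and leukocyte markers on Brg1-/- replicate 1 (0.72).

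Some members of these lists that belong to counts of 5 or fewer have not been named so far, and are given here without regard to size. Among transcription factors and signalling genes that rose were Nr4a2 and Btg2, both immediate early genes, by 1.24 ± 0.25 and 1.36 ± 0.18, Osr2 and Pax3, both patterning factors, by 2.42 ± 0.50 and 1.21 ± 0.23, and Irs2, an adaptor of the insulin receptor, by 1.59 ± 0.33. The ligand Bmp6 and the chemokine Cxcl11 rose by 1.60 ± 0.28 and 3.36 ± 0.86. Cenpa, the centromeric histone H3 variant, and the matrix protein Fbln1 (fibulin-1) rose by 2.15 ± 0.29 and 1.68 ± 0.15. Rspo2, an agonist of Wnt signalling, fell by 1.31 ± 0.24 and Ccn4, a matricellular protein, by 0.80 ± 0.20. These 11 kept their calls on both scales when any 1 array was left out (adjusted p with all arrays from 1.35e-05 to 0.0120).

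Another 26 such members passed in the full comparison with calls that needed single arrays. Spry1, a feedback inhibitor of receptor tyrosine kinases, differed by 1.19 ± 0.16, the growth factor Fgf5 by 2.42 ± 0.67 and the receptor tyrosine kinase Axl by -0.73 ± 0.18. Of cholesterol synthesis, the kinases Mvk and Pmvk differed by 0.96 ± 0.18 and 0.98 ± 0.19 and the demethylase Cyp51 by -0.51 ± 0.16, and the fatty acid desaturase Fads1 by -0.56 ± 0.16. The chemokine Cx3cl1 and the proteoglycan Omd (osteomodulin) differed by 1.21 ± 0.28 and 2.37 ± 0.60. The Wnt receptor Fzd3 and the secreted Wnt antagonist Frzb differed by -0.99 ± 0.33 and -1.44 ± 0.45, the TEAD factor Tead2 by -0.46 ± 0.14, the immediate early gene Ier5 by -0.48 ± 0.15 and the macrophage growth factor Csf1 by -0.75 ± 0.24. The histone variant H2az1 and glutathione reductase (Gsr) differed by 1.21 ± 0.15 and 1.09 ± 0.16. Of genes counted as lower, the complement inhibitors Cd55 and Cd59a differed by -0.72 ± 0.20 and -0.53 ± 0.16 and the chemokine Ccl8 by -0.92 ± 0.25. The muscle genes Actc1 (cardiac actin) and Des (desmin) differed by -0.73 ± 0.23 and -1.86 ± 0.63, and the mesenchymal factor Twist2 by -0.62 ± 0.18. Another probe set of Des differed by only -0.15, with means of 150 in wild type and 135 in Brg1-/- cells. Rrp1 and Ddx10 of ribosome assembly differed by -0.27 ± 0.08 and -0.42 ± 0.14, and the respiratory chain subunit Cox5a by -0.24 ± 0.07. Other probe sets of Cox5a and Ddx10 above background went the other way, from a wild type mean of 6880 to 7297 for Cox5a (0.08 in log2) and from 243 to 278 for Ddx10 (0.18). Of genes named here and earlier, dim probe sets of Cx3cl1, Cxcl11, Frzb, Fzd3, Hltf, Igfbp7, Myh11 and Top2a, at means of at most 45.8 in either genotype, also differed in the opposite direction. Ifi202b, the interferon-induced gene counted as lower, read 245, 321 and 110.1 on the wild type arrays and 286, 2.41, 5.35 and 3.97 on the Brg1-/- arrays (-4.22 ± 1.34), so Brg1-/- replicate 1 lay inside the wild type range and the other 3 were far under it.

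Of these 26 and of 12 genes described earlier, Bbc3, Ccng1, Cdkn2b, Cnn1, Cnn2, E2f5, Foxm1, Igfbp5, Irf7, Prim1, Usp18 and Vegfc, leaving out wild type replicate 1 ended the calls of Actc1, Cd55, Cd59a, Cdkn2b, Cnn1, Cnn2, Cox5a, Csf1, Cx3cl1, Cyp51, Ddx10, Des, E2f5, Frzb, Fzd3, Ier5, Ifi202b, Mvk, Omd, Pmvk, Rrp1, Tead2 and Usp18 (adjusted p from 0.0530 to 0.200), and leaving out wild type replicate 2 those of Actc1, Ccl8, Ccng1, Cd59a, Cnn1, Cnn2, Cox5a, Csf1, Cyp51, Ddx10, Des, E2f5, Fads1, Fgf5, Foxm1, Frzb, Fzd3, Gsr, H2az1, Ier5, Ifi202b, Igfbp5, Irf7, Rrp1, Tead2, Twist2 and Usp18 (adjusted p from 0.0525 to 0.155). Wild type replicate 3 was needed for Axl, Bbc3, Ccl8, Cd55, Cd59a, Cnn1, Cnn2, Csf1, Cx3cl1, Cyp51, Ddx10, Des, E2f5, Foxm1, Frzb, Fzd3, H2az1, Ier5, Ifi202b, Mvk, Prim1, Rrp1, Spry1, Twist2 and Vegfc (adjusted p from 0.0502 to 0.129). Brg1-/- replicate 1 was needed for Actc1, Csf1, Cyp51, Ddx10, Fads1, Fgf5, Foxm1, Frzb, Fzd3, Tead2, Twist2 and Usp18 (adjusted p from 0.0516 to 0.102) and replicate 2 for Actc1, Cd59a, Cnn1, Csf1, Cyp51, Des, E2f5, Foxm1, Fzd3, Gsr, H2az1, Ier5, Ifi202b, Mvk, Pmvk and Usp18 (adjusted p from 0.0506 to 0.103). Brg1-/- replicate 3 was needed for Actc1, Cd59a, Cnn1, Cnn2, Cox5a, Csf1, Des, E2f5, Fgf5, Foxm1, Frzb, Fzd3, Gsr, H2az1, Ier5, Ifi202b, Mvk, Rrp1, Tead2 and Usp18 (adjusted p from 0.0549 to 0.120), and replicate 4 for Cnn2, Cox5a, Cx3cl1, Cyp51, Ddx10, Des, E2f5, Fads1, Foxm1, Frzb, Ier5, Ifi202b, Mvk, Tead2, Twist2 and Usp18 (adjusted p from 0.0531 to 0.106). Through the variance that the fit shares, the calls also needed Snf5-/- replicate 1 for E2f5 and Foxm1 (adjusted p from 0.0543 to 0.0575) and Snf5-/- replicate 3 for Des and Fzd3 (adjusted p up to 0.0515).

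The direct contrast of Brg1-/- with Snf5-/- arrays sets the ATPase mutant against the core subunit mutant. Smarcb1 had a mean of 302 on the Snf5-/- arrays and 785 on the wild type arrays. After quantile normalization 176 genes (2.09%) were higher and 191 (2.27%) lower in Brg1-/- than in Snf5-/- cells, and on the deposited scale 31 (0.369%) and 330 (3.93%). The total of 367 was 137 without Brg1-/- replicate 2, 119 without Brg1-/- replicate 3, 200 without Snf5-/- replicate 2, and 232 and 235 without wild type replicates 2 and 3, which enter the shared variance and normalization. After quantile normalization the mitotic and replication lists had calls on the higher side alone. All list counts of this contrast, here and below, are on that scale alone and were not made on the deposited scale. Of the 53 replication genes 20 were higher in Brg1-/- and 0 lower, and the counts were 12 and 0 of 30 mitotic motor and cytokinesis genes, 10 and 0 of 31 kinetochore genes and 5 and 0 of 22 mitotic kinase genes. The 35 cyclins, kinase inhibitors and Rb and E2F family genes went both ways, 7 higher and 3 lower. Kifc1 was at 16.7, 95.2 and 184 on the Snf5-/- arrays, and Brg1-/- minus Snf5-/- was 2.87 ± 0.62 (adjusted p = 0.0262). Mcm5 was at 540.1, 402 and 339 on the Snf5-/- arrays, a difference of 0.98 ± 0.17 (adjusted p = 0.0103). Snf5-/- cells also lay above wild type in these lists, by less than Brg1-/- cells. Their median log2 differences from wild type were 0.57 for mitotic kinase, 0.32 for kinetochore, 0.54 for mitotic motor and 0.26 for replication genes. The Brg1-/- medians were 1.25, 0.89, 1.11 and 0.76. Ube2c was at 1265, 1095 and 1029 on the Snf5-/- arrays, above every wild type array, whereas Kifc1 overlapped the wild type range.

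Interferon-induced genes lay on the other side, with 10 of 43 lower in Brg1-/- than in Snf5-/- cells and 0 higher. Bst2 (tetherin), which retains viruses at the cell surface, was at 417, 429.8 and 477 in wild type, 763, 645, 605 and 796 in Brg1-/- and 1733, 4088 and 2307 in Snf5-/- cells, and Brg1-/- minus Snf5-/- was -1.86 ± 0.23 (adjusted p = 0.00166). Parp12 was at 679.6, 1514 and 1066 on the Snf5-/- arrays, a difference of -1.01 ± 0.21 (adjusted p = 0.0249), and Ifit1 at 848, 6044 and 2905, a difference of -2.19 ± 0.50 (adjusted p = 0.0327). The Snf5-/- arrays stood above the Brg1-/- arrays in all 3 genes, with Snf5-/- replicate 2 the highest. Imprinted and insulin-like growth factor genes had 9 of 29 lower and 0 higher, and the contractile list 5 of 47 lower and 0 higher. Of the 3 cell cycle regulators that were lower, Cdkn1c was at 554, 947 and 537 on the Snf5-/- arrays, overlapping the wild type range, and Brg1-/- minus Snf5-/- was -1.53 ± 0.20 (adjusted p = 0.00270). Cdkn1a was at 8699, 8714 and 9548 on the Snf5-/- arrays, above every wild type array, a difference of -0.85 ± 0.10 (adjusted p = 0.00155). The third was Rb1, the retinoblastoma protein, at 514, 507 and 745 in Snf5-/- cells against 289, 309, 382 and 415 in Brg1-/- cells (-0.75 ± 0.18, adjusted p = 0.0429), where it overlapped the wild type arrays (399, 283 and 319). In the contractile list Actg2 was at 3112, 2665 and 2512 in wild type, 2042, 1080.1, 926 and 1520.2 in Brg1-/- and 6203, 5207 and 4446 in Snf5-/- cells (-1.98 ± 0.22, adjusted p = 0.00136). It was thus lower than wild type in Brg1-/- cells, while every Snf5-/- array was above every wild type array. Acta1 was at 829.8, 1253 and 404 in Snf5-/- cells, below every wild type array and with replicate 3 inside the Brg1-/- range, and Brg1-/- minus Snf5-/- was -1.12 ± 0.30 (adjusted p = 0.0543), which missed the threshold here and passed it on the deposited scale (adjusted p = 0.0100). Gas1, the bright gene with the largest rise, was at 5188, 2932 and 8337 in Snf5-/- cells, a difference of 0.04 ± 0.30 (adjusted p = 0.957). Of the genes named so far for this contrast, all but Acta1 and Gas1 passed on both scales. That does not hold for all cell cycle genes described earlier. Pold2, Mki67, Ccnb2 and Ccna2 also passed on both scales. Cdc20, Top2a, Spc25 and Mcm7 passed after quantile normalization only. Their limma adjusted p on the deposited scale was 0.0981, 0.140, 0.156 and 0.231.

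**Figure D5:**
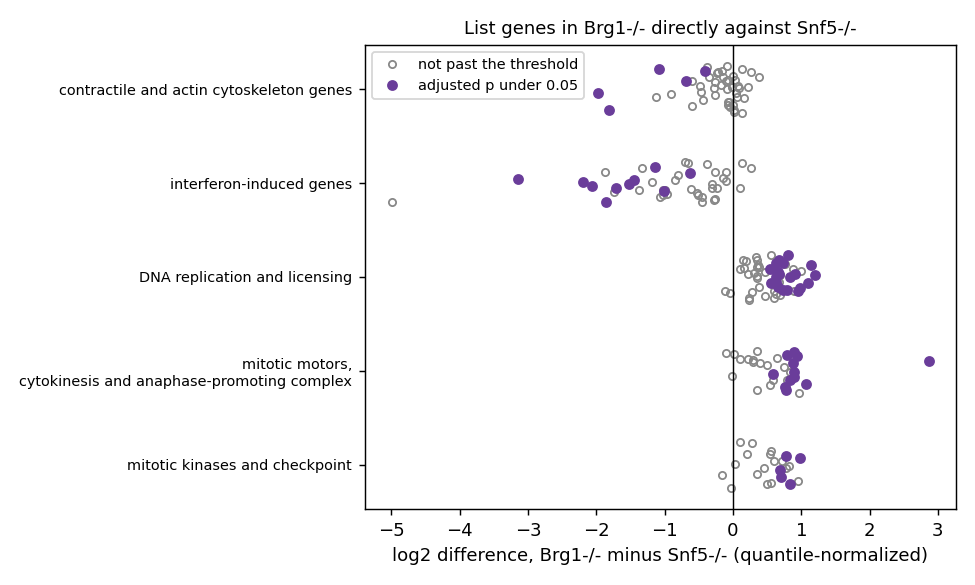
Log2 difference, Brg1-/- minus Snf5-/- after quantile normalization (x axis), for each tested gene of 5 lists (rows, with vertical jitter); filled points are past the threshold of 0.05 in limma adjusted p and open points are not. The filled points of the mitotic and replication rows all lie to the right of 0 and those of the interferon and contractile rows to the left.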

How the data were processed

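RNA of 10 fibroblast arrays (3 wild type, 4 Brg1-/- and 3 Snf5-/-) had been hybridised to 1-colour Affymetrix arrays. The deposited values are intensities of 22690 probe sets summarised with MAS5, per the submitters' processing notes. Its version and scaling target are not given in the sources used here. No entry was zero or negative, so log2 was taken with no pseudocount.

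The values were analysed as log2 of the deposited intensities and again after quantile normalization. Quantile normalization gives every array the same distribution, and removes any real shift common to most genes. The deposited scale keeps such a shift together with any difference in labelling or scanning. Symbols came from the platform annotation: 20380 probe sets had 1 symbol, 691 several, 1555 are unnamed here and 64 were controls, and the brightest probe set stood for a gene. A gene was tested when its signal was at or above the array's 40th percentile on at least 3 arrays. The 3 groups were fitted together with limma 3.58.1 in R 4.3.3 (lmFit, eBayes with an intensity trend), with Benjamini-Hochberg adjustment over all tested genes and a threshold of 0.05. On data simulated with the quantile-normalized means and spread of these arrays, 78% of genes changed by 1 in log2 and 96% of those changed by 2 were recovered in this comparison. The simulation used that scale alone and held no difference in array brightness. Recovery under the rule of both scales was not measured. Background on an array was its brightest of 27 Bacillus subtilis control probe sets. The number of arrays limits the precision.

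The genes to name were Smarca4, Smarca2 and Smarcb1, then the 12 largest rises and 12 largest falls past the threshold on both scales, without overlap with the brighter group above background and with predicted, unnamed genes passed over, and up to 4 members of each list by adjusted p plus up to 2 of the other direction. The members and gene lists were chosen with earlier results of these data known. Other genes were named after their values were seen: Actg2, Bbc3, Bst2, Btg2, Ccn4, Ccnd1, Ccng1, Cdh2, Cdkn2b, Cdkn2c, Cenpa, Cnn1, Cnn2, Col1a1, Col1a2, Csf1, Csf1r, Cx3cl1, Cxcl11, Dlk1, E2f5, Fbln1, Foxm1, Frzb, Fzd3, Ier5, Ifit1, Igfbp5, Igfbp6, Igfbp7, Irf7, Irs2, Itga5, Krt18, Lyz2, Mmp3, Myh11, Mylk, Nqo1, Nr4a2, Omd, Osr2, Pax3, Pdgfa, Pdgfc, Plaur, Prim1, Rb1, Tead2, Tgfb1, Uhrf1, Usp18, Vegfc and Vim. The defining markers Cdh1, Cdh5, Epcam, Krt14, Myod1, Pecam1 and Ptprc were too dim to be tested. Gene coordinates and promoter windows are RefSeq's (GRCm38.p6); 20352 of the probe sets with 1 symbol matched a RefSeq gene. The alternatives were other scalings, filters, probe set rules, variance models, array weights, an added constant of 16 intensity units, the replicate number as a block, and leaving out each array in turn.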

Additional observations from a re-analysis of the deposited data

Results flagged for a closer look

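Among 253 named genes examined in the 4 Brg1-/- arrays, 12 had 1 array that stood apart from the other 3 by Dixon's criterion for 4 samples, and chance alone flags about 1 in 20 such groups. The values are quantile-normalized intensities.

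Brg1-/- replicate 4 read 695 for Smarca4, the targeted gene, against 452 to 477 on the other 3 arrays, and still lay below every wild type array. The same array read 1220 for Smarcb1 against 1000.0 to 1040, 1730 for Col12a1 against 992 to 1040 and 13600 for Timp2 against 10200 to 10600.

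Brg1-/- replicate 1 read 182 for Pdgfra against 539 to 565, 138 for Adamts4 against 283 to 320, 627 for Spc25 against 852 to 893 and 811 for Epha2 against 534 to 573. For Ifi202b the same array read 286 against 2.41 to 5.35. Brg1-/- replicate 2 read 833 for Usp18 against 595 to 612, 551 for Phc1 against 480 to 490 and 270 for Bcl7b against 248 to 250.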

How the results depend on the processing

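On the deposited scale 3990 genes changed in place of 2333, 288 higher and 3702 lower in place of 1252 and 1081. With array weights 674 rose and 1538 fell on both scales in place of 288 and 1081; limma reported that the weights did not reach its convergence tolerance, and the cause of the larger count was not tested. The genes that differed between Brg1-/- and Snf5-/- were 367, against 240 with the median of all probe sets of a gene, 193 with no intensity trend and 119 to 490 on leaving out 1 array. Leaving out 1 array gave 1655 to 2515 for the number of genes changed in Brg1-/- against wild type, and the Brg1-/- minus wild type difference in median array intensity, -0.409 in log2, ranged from -0.469 to -0.323, with fewer splits to test. Same-numbered deviations of wild type and Brg1-/- arrays correlated at 0.11, -0.00432 and 0.0331, and differently numbered ones at -0.126 to 0.0746. Of 3 wild type arrays, 1 correlated best with its own number. So few values cannot show whether replicate numbers pair the arrays, and the main fit used no pairing. With the replicate block 2174 genes changed, 267 higher and 1008 lower on both scales. Of the named genes, the following changed direction. On the deposited scale these were Ccn1 (-0.092), Cd9 (-0.14), Mrtfa (-0.10), Rb1 (-0.38), Scap (-0.0659), Smarca2 (-0.37), Smarcb1 (-0.0779), Smo (-0.10), Srm (-0.26), Suz12 (-0.0189) and Twist1 (-0.14). With median-centred deposited values they were Vim (0.25) and Col1a2 in Brg1-/- against wild type (0.0203), and with the median of all probe sets Ccng1 (0.11), Csf1r (0.0116) and Orc4 (0.30). With the replicate block it was Rb1 in Brg1-/- against wild type (-0.0267). Leaving out 1 array gave -0.0482 to 0.197 for Rb1, -0.20 to 0.24 for Csf1r, -0.64 to 0.12 for Lyz2 and -0.11 to 0.25 for Smarca2. Over 253 named genes and all alternatives, 4956 gene and setting pairs kept direction and call, 296 lost the call, 5 gained it and 24 changed direction. These pairs were scored on the quantile-normalized scale alone, or on the scaling that replaced it. Calls lost only on the deposited scale, such as those of Foxm1 and Notch3, therefore count as kept. Signal over background limits the dim genes, for which only bounds are given.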
